A study of Mus musculus with 67 samples.

Results

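The major histocompatibility complex (MHC) class II genes of the mouse were examined as a set of 8 genes: the chains H2-Aa, H2-Ab1, H2-Ea and H2-Eb1, the chaperone Cd74, the peptide-loading chains H2-DMa and H2-DMb1, and the transcriptional regulator Ciita. Members were the probe sets that the platform's gene table assigns to these symbols alone. Each gene had 1 probe set, so the set was 8 probe sets of the 38385 on the array and 8 genes of the 19147 that have a probe set of their own.

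The study profiled 3 inbred strains of male mice aged 12 weeks that differ in blood pressure: hypertensive BPH/2J (BPH, systolic pressure 142 ± 5 mmHg), normotensive BPN/3J (BPN, 94 ± 6 mmHg) and hypotensive BPL/1J (BPL, 69 ± 1.7 mmHg). None of the mice carried an engineered allele or received a treatment according to the labels. Aorta was measured on 9 BPH, 5 BPN and 9 BPL arrays, heart and liver on 5 arrays of each strain, and kidney on 5 BPH, 5 BPN and 4 BPL arrays, 67 arrays in all. The design text names 5 mice per strain, and no label ties an array to a mouse, so with 9 aorta arrays in a strain some may share an animal, and p-values then measure only the spread between arrays. The strains are separately inbred lines, so a difference between them is one between whole genomes as well as between blood pressures.

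MHC class II molecules are pairs of an alpha and a beta chain that carry peptides from engulfed protein to the surface of dendritic cells, macrophages and B cells, where helper T cells read them. H2-Aa pairs with H2-Ab1 to form the I-A molecule and H2-Ea with H2-Eb1 to form I-E. Cd74, the invariant chain, holds new pairs together and blocks their groove until it is cut away by proteases, and the H2-DM pair then exchanges its last fragment for peptide. Ciita is the coactivator through which the class II chains, Cd74 and H2-DM are switched on together, acting at a conserved module of upstream boxes termed X and Y. In heart, kidney, liver and vessel wall, class II RNA comes mainly from resident macrophages and dendritic cells, and interferon gamma can raise it in other cells.

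Because the X and Y boxes are the shared control element of these genes, their reference promoters are shown for the members that had both. RefSeq promoter windows (build GRCm38.p6, which is the C57BL/6J genome and not that of the strains studied) were found for 4 of 8 members, each running from 250 bases before to 50 bases after the start site. Capitals mark CTNGNAAC, the core letters of the X1 box, and TGATTGG, those of the Y box. The sequences are printed 5′ to 3′ on the strand of the gene: H2-Aa at chr17:34287774-34288073 (minus strand), H2-Eb1 at chr17:34305617-34305916 (plus strand) and H2-DMb1 at chr17:34152941-34153240 (plus strand).
H2-Aa: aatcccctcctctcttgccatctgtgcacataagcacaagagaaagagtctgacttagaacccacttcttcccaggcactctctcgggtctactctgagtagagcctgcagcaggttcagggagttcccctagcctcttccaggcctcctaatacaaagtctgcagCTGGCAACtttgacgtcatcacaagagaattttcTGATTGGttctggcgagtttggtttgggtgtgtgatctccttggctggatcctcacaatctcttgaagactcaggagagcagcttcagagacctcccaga
H2-Eb1: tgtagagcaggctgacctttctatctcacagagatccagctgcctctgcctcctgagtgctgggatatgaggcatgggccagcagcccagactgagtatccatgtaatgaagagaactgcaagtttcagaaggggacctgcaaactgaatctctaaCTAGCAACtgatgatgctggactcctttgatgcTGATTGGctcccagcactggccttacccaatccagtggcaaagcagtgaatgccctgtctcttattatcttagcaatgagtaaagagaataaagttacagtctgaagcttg
H2-DMb1: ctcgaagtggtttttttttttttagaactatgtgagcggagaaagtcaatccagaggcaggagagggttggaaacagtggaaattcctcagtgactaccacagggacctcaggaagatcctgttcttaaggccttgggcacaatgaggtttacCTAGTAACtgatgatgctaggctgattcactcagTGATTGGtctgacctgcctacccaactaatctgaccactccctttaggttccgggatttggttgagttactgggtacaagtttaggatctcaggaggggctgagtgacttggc
In each of the 3 promoters the X1 letters came first and the Y letters followed after a gap of 26 bases in H2-Aa and H2-DMb1 and 25 bases in H2-Eb1. The Y letters ended 44, 55 and 57 bases before the start site in H2-Aa, H2-Eb1 and H2-DMb1. Searched on both strands, CTNGNAAC was present in 13.2% and TGATTGG in 7.82% of 32841 RefSeq windows, and both in 1.07%. The ordered pair on the gene's strand, at most 40 bases apart, was present in 17 windows (0.0518%), of which 4 belonged to class II genes, these 3 and H2-Ob. The letters and spacing were chosen with these windows in view, and a match describes the reference letters only. The 2 windows of H2-DMa held neither motif.

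Values are intensities summarised by the robust multi-array average (RMA), analysed as log2, so a difference of 1 is a 2-fold difference; levels of different probe sets are not comparable with each other. Median intensities of single arrays ranged from 25.3 to 26.6 (aorta), 24.6 to 26.3 (heart), 29.8 to 31.5 (kidney) and 13.6 to 14.4 (liver). Identity genes were high in the labelled tissue in every array, with mean log2 levels of 12.42 to 12.84 for smooth muscle and elastin genes in aorta, 13.97 to 14.07 for sarcomere genes in heart, 12.17 to 12.55 for nephron genes in kidney and 12.08 to 12.58 for hepatocyte genes in liver. The aorta RNA was amplified to labelled cDNA by a different protocol from the cRNA protocol of the other 3 tissues, so aorta against another tissue and protocol cannot be told apart. All are bulk samples, in which fewer class II-positive cells and less class II RNA per cell cannot be told apart. H2 genes are highly polymorphic, the H2 haplotypes of the 3 strains are not given in the sources used here, and whether strain sequence differences under the probes alter the signal was not tested.

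In every tissue BPN had the highest mean for most members, and both the hypertensive and the hypotensive strain had less. The exceptions were H2-DMb1, highest in BPL in aorta and kidney, and Ciita, highest in BPH in liver. Which strain had the lowest mean changed between tissues for most members, but the 2 lower strains often did not differ by the test. Only for H2-Eb1 did BPH and BPL differ in opposite directions at an adjusted p below 0.05 (limma). It was lower in BPH in kidney (0.0358, a call lost in the joint fit) and higher in BPH in liver (5.1e-06). Against BPN, the members lower in BPH numbered 6 of 8 for aorta, 6 for heart, 7 for kidney and 6 for liver at an adjusted p below 0.05 (limma, adjusted over all probe sets), and none was higher. The share of all probe sets lower in BPH was 4.70% for aorta, 3.51% for heart, 3.39% for kidney and 3.85% for liver, and the share higher was 4.45%, 3.51%, 3.66% and 3.29% in that order. The median difference of the 8 members was -1.25 in heart, -1.02 in kidney, -0.91 in liver and -1.46 in aorta, beside medians over all probe sets between -0.01 and 0.01 in all 12 comparisons. Of the 8 members, 6 in heart, 7 in kidney and 6 in liver had BPH and BPN arrays that did not overlap, and none in aorta. Aorta compared 9 BPH with 5 BPN arrays and the other tissues 5 with 5. The share of all probe sets without overlap is not given here, so these counts only describe the members.

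In BPL the members moved less evenly. Against BPN, 5 members were lower and 1 higher in aorta, where 5.20% of all probe sets were lower and 5.14% higher. In heart 6 were lower (5.20% of all), in kidney 3 (3.02%) and in liver 6 (3.70%), and none was higher in these tissues, where 4.14%, 3.22% and 3.77% of all probe sets were. The median difference was -1.38 in heart, -0.57 in kidney, -1.34 in liver and -1.11 in aorta. The BPL and BPN arrays did not overlap for 3 members in aorta, 4 in kidney, 6 in heart and 6 in liver. These counts also lack a share over all probe sets, and they rest on 9, 4, 5 and 5 BPL arrays in that order. Both sets of comparisons use the same BPN arrays.

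**Figure D1:**
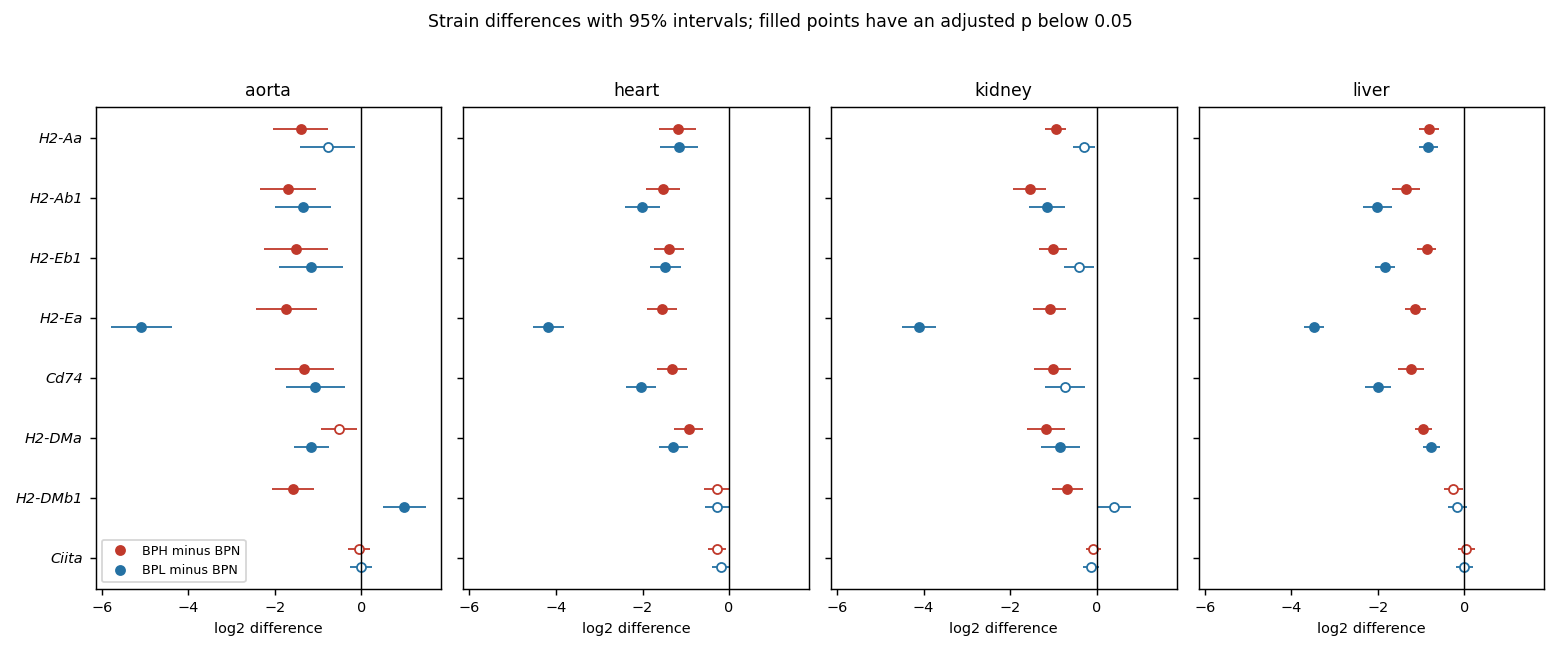
Log2 difference from BPN (horizontal axis) of each member in each tissue, for BPH (red) and BPL (blue), with 95% confidence intervals from limma; filled points have an adjusted p below 0.05. H2-Ea lies between -5.08 and -3.48 in BPL, H2-DMb1 lies above 0 only in BPL aorta and kidney (0.99 and 0.40, of which only the aorta value passed the test), and no point of Ciita is filled.

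H2-Ab1, the beta chain of I-A, was lower than in BPN in both strains and all 4 tissues. In aorta the BPN arrays read 10.04, 9.97, 9.63, 9.38 and 9.24, the 9 BPH arrays ran from 6.995 through a median of 7.80 to 9.68, and the 9 BPL arrays from 7.58 through 8.13 to 9.28. The strains overlapped in aorta, where 1 BPH array, replicate 10, stood among the BPN arrays. In heart BPN read 9.11, 10.16, 9.94, 9.36 and 9.13, BPH 8.33, 7.54, 8.01, 7.91 and 8.26, and BPL 7.55, 7.25, 7.60, 7.59 and 7.68. In kidney BPN read 9.66, 10.65, 9.68, 9.85 and 9.30, BPH 8.40, 8.01, 8.38, 8.37 and 8.22, and BPL 8.64, 8.87, 8.43 and 8.77. In both tissues every BPN array lay above every BPH and BPL array. In liver BPN read 7.87, 8.55, 8.17, 8.20 and 7.74, BPH 7.26, 6.66, 6.46, 6.90 and 6.51, and BPL 6.20, 6.39, 6.06, 5.84 and 6.00. The difference of BPH from BPN was -1.53 ± 0.19 (SE) in heart, -1.55 ± 0.18 in kidney, -1.35 ± 0.16 in liver and -1.69 ± 0.32 in aorta, which is 2.55-fold to 3.23-fold. For BPL it was -1.35 ± 0.32, -2.00 ± 0.19, -1.15 ± 0.19 and -2.01 ± 0.16 for aorta, heart, kidney and liver. The adjusted p was at most 0.00476 in these 8 tests.

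H2-Aa, the alpha chain of the same molecule, was lower in BPH in every tissue by a smaller amount. The difference from BPN was -1.19 ± 0.21 in heart, -0.95 ± 0.12 in kidney, -0.83 ± 0.11 in liver and -1.40 ± 0.31 in aorta, with adjusted p at most 0.00287. The aorta arrays overlapped, BPH running from 5.89 through 6.60 to 8.40 and BPN from 7.79 to 8.59, and the arrays of the other 3 tissues did not. In BPL it was lower in heart (-1.16 ± 0.21, adjusted p = 0.00106) and liver (-0.83 ± 0.11, adjusted p = 3.6e-05). In BPL kidney its difference was -0.29 ± 0.12 (adjusted p = 0.212) and in BPL aorta -0.78 ± 0.31 (adjusted p = 0.119). The aorta value passed in a joint fit of all 12 groups (0.00803), in a fit of the 2 strains alone (0.039), and without BPH replicate 10 (0.0446) or BPL replicate 26 (0.0467).

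H2-Eb1, the beta chain of I-E, was also lower in BPH in every tissue, by -1.38 ± 0.17 in heart, -1.01 ± 0.16 in kidney, -0.88 ± 0.11 in liver and -1.51 ± 0.36 in aorta. The adjusted p was at most 0.00582, and the liver value became 0.0529 in the joint fit. In liver the BPN arrays read 7.92, 8.35, 8.05, 8.22 and 8.03, the BPH arrays 7.66, 7.11, 7.11, 7.24 and 7.05, and the BPL arrays 6.40, 6.23, 6.34, 6.12 and 6.27. The 3 strains formed 3 separate ranges there, BPL lowest, with a BPL difference from BPN of -1.84 ± 0.11 (adjusted p = 6.2e-10). In kidney, where BPN read 9.34, 10.23, 9.44, 9.74 and 9.23, the BPL arrays read 9.28, 9.33, 8.90 and 9.25 and overlapped them. The kidney difference of BPL from BPN, -0.40 ± 0.17, did not pass the test (adjusted p = 0.195). BPL heart was lower by -1.47 ± 0.17 (adjusted p = 9.4e-06). BPL aorta was lower by -1.17 ± 0.36 (adjusted p = 0.0357), a call that was lost without any 1 of 9 arrays (BPL replicates 21, 23, 24, 25 and 28 and BPN replicates 11, 12, 13 and 14), with adjusted p up to 0.0912.

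H2-Ea, the alpha chain of I-E, showed the largest difference of the 8 members in BPL. The RefSeq table lists this gene as a transcribed pseudogene in the C57BL/6J reference, and lack of a functional H2-Ea transcript is known from several laboratory haplotypes. In aorta the 5 BPN arrays read 9.12, 8.57, 8.65, 8.40 and 8.25, while the 9 BPL arrays ran from 3.21 through 3.46 to 3.93. In heart BPN read 9.16, 10.07, 9.89, 9.39 and 9.17 and BPL 5.30, 5.37, 5.43, 5.41 and 5.30. The BPL arrays lay more than 3 log2 units under every BPN array, and in heart they differed among themselves by an SD of 0.06 (n = 5), against 0.42 in BPN. In kidney BPN read 9.12, 9.98, 9.24, 9.52 and 8.96 and BPL 5.74, 5.14, 5.30 and 4.87. In liver BPN read 7.64, 8.08, 7.93, 7.68 and 7.49 and BPL 4.22, 4.27, 4.26, 4.35 and 4.34. The difference of BPL from BPN was -5.08 ± 0.34 or 33.9-fold in aorta, -4.17 ± 0.17 or 18.1-fold in heart, -4.10 ± 0.19 or 17.2-fold in kidney, and least in liver at -3.48 ± 0.11 or 11.1-fold, with adjusted p at most 2.2e-10. The BPL mean ranked at the 33.9th percentile of all probe sets in aorta, the 59.3rd in heart, the 54.9th in kidney and the 57.4th in liver, above the lower quartile in each.

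BPH mice had an intermediate level of H2-Ea. In heart BPH read 8.34, 7.55, 7.95, 7.89 and 8.21, in kidney 8.35, 8.15, 8.37, 8.41 and 8.09, and in liver 6.86, 6.59, 6.42, 6.90 and 6.35. These arrays lay between the BPN and the BPL arrays without overlap on either side. In aorta BPH ran from 5.49 through 6.58 to 9.07, overlapping BPN through replicate 10 and lying wholly above BPL. The difference of BPH from BPN was -1.55 ± 0.17 in heart, -1.09 ± 0.17 in kidney, -1.14 ± 0.11 in liver and -1.73 ± 0.34 in aorta, with adjusted p at most 0.000888. The difference of BPH from BPL was 3.35 ± 0.29, 2.63 ± 0.17, 3.01 ± 0.19 and 2.34 ± 0.11 for aorta, heart, kidney and liver, so that for H2-Ea both steps from BPN to BPH to BPL passed the test in each tissue.

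**Figure D2:**
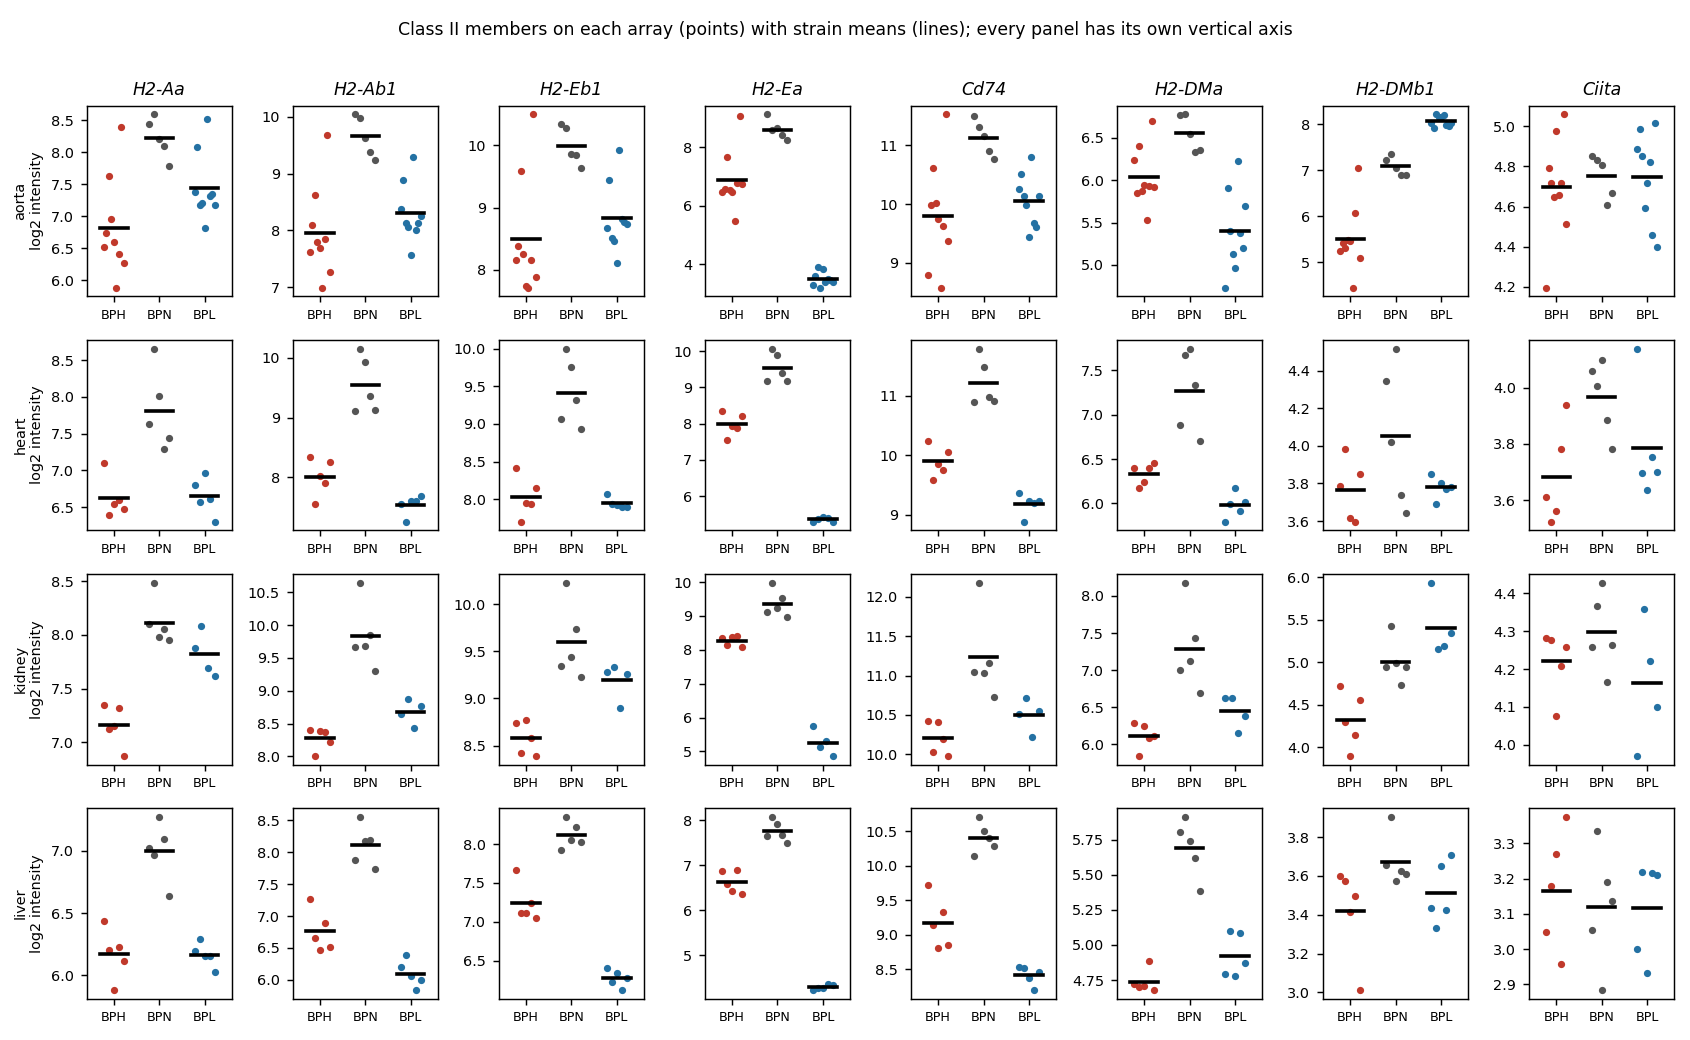
Log2 intensity (vertical axis, separate for each panel) of each member on every array of BPH (red), BPN (grey) and BPL (blue), one row of panels per tissue; lines are strain means. In aorta the upper BPH point of H2-Aa, H2-Ab1, H2-Eb1, H2-Ea and Cd74, between 8.40 and 11.52, is the same array, replicate 10, and BPL points of H2-Ea lie at 5.74 or below in every tissue.

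Cd74, the invariant chain, was lower than in BPN in all 4 BPH tissues and in BPL aorta, heart and liver. In heart the BPN arrays read 10.89, 11.79, 11.47, 10.98 and 10.91, BPH 10.24, 9.58, 9.86, 9.74 and 10.06, and BPL 9.36, 8.88, 9.23, 9.19 and 9.23. In liver BPN read 10.14, 10.71, 10.51, 10.40 and 10.29, BPH 9.72, 9.14, 8.82, 9.34 and 8.85, and BPL 8.53, 8.52, 8.37, 8.20 and 8.46. In both tissues the 3 strains occupied separate ranges. In kidney BPN read 11.04, 12.18, 11.03, 11.16 and 10.73, BPH 10.43, 10.03, 10.42, 10.20 and 9.98, and BPL 10.51, 10.71, 10.22 and 10.55. In aorta BPN read 11.49, 11.32, 11.16, 10.91 and 10.76, BPH ran from 8.58 through 9.74 to 11.52, and BPL from 9.44 through 10.13 to 10.80. Here the BPN arrays stood highest on average but overlapped BPH through replicate 10 and BPL through replicate 26. The BPH difference from BPN was -1.31 ± 0.16 in heart, -1.02 ± 0.20 in kidney, -1.24 ± 0.14 in liver and -1.32 ± 0.33 in aorta (adjusted p at most 0.00889). For BPL it was -2.03 ± 0.16 in heart and -1.99 ± 0.14 in liver (adjusted p at most 1.2e-07).

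For Cd74 in BPL aorta (-1.07 ± 0.33, adjusted p = 0.0369) the call was lost without any 1 of BPL replicates 24, 25, 27 and 28 or BPN replicates 11, 12, 13 and 14, with adjusted p up to 0.0972. In BPL kidney the arrays did not overlap BPN, yet the difference of -0.73 ± 0.21 missed the threshold (adjusted p = 0.0539). Without BPN replicate 2, the highest kidney array, that difference was -0.49 (adjusted p = 0.0326), and without BPN replicate 5 it was -0.86 (adjusted p = 0.0242).

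H2-DMa, the alpha chain of the peptide exchanger, was lower in BPH heart (-0.93 ± 0.16), kidney (-1.17 ± 0.20) and liver (-0.95 ± 0.09), with adjusted p at most 0.00118. In BPH aorta its difference was -0.52 ± 0.20 (adjusted p = 0.118), which passed in the joint fit (0.0271). In BPL it was lower in aorta (-1.15 ± 0.20), heart (-1.29 ± 0.16), kidney (-0.84 ± 0.21) and liver (-0.77 ± 0.09). The liver BPN arrays read 5.80, 5.91, 5.74, 5.62 and 5.38, the BPH arrays 4.72, 4.70, 4.71, 4.88 and 4.68, and the BPL arrays 4.79, 5.10, 4.78, 5.08 and 4.87. Both strains lay below BPN there and overlapped each other. The BPL kidney call (adjusted p = 0.0249) was lost without BPL replicate 4 (0.0853), BPL replicate 5 (0.0615) or BPN replicate 4 (0.0532), and in the fit of the 2 strains alone (0.0708).

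H2-DMb1, the beta chain of the same pair, behaved differently from its partner. In aorta the BPL arrays were the highest, running from 7.92 through 8.04 to 8.22 with an SD of 0.11 (n = 9). The BPN arrays read 7.23, 7.36, 7.05, 6.91 and 6.91, and BPH ran from 4.45 through 5.41 to 7.05. Thus BPL lay above every BPN array by at least 0.5 log2 unit, and the BPH arrays lay lower, of which only replicate 10 reached the BPN range. BPL exceeded BPN by 0.99 ± 0.24 (1.98-fold, adjusted p = 0.00696), BPH was below BPN by -1.58 ± 0.24 (adjusted p = 4.4e-05), and BPH was below BPL by -2.57 ± 0.20 (5.93-fold, adjusted p = 6.1e-10). In kidney BPH read 4.72, 4.30, 3.90, 4.14 and 4.56, BPN 4.94, 5.42, 5.00, 4.73 and 4.94, and BPL 5.93, 5.16, 5.19 and 5.34. BPH was lowest there, without overlap with either strain, at -0.68 ± 0.17 against BPN (adjusted p = 0.0201) and -1.08 ± 0.18 against BPL (adjusted p = 0.000958). The first of these calls was lost without BPH replicate 3 (0.0544), BPH replicate 4 (0.054) or BPN replicate 2 (0.0569). In BPL kidney the difference from BPN was 0.40 ± 0.18 (adjusted p = 0.252).

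In heart and liver H2-DMb1 was dim and did not pass the test in either strain, with differences from BPN between -0.29 and -0.16. Mean log2 levels there were 3.77 to 4.05 in heart and 3.42 to 3.67 in liver, between the 35.4th and the 47.8th percentile of all probe sets. The mouse genome holds a near-identical copy, H2-DMb2, which has no probe set under its own name here, so the H2-DMb1 signal may include it.

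Ciita did not pass the test in any of the 12 comparisons. Its aorta means were 4.70 ± 0.25 in BPH (SD, n = 9), 4.75 ± 0.11 in BPN (n = 5) and 4.75 ± 0.22 in BPL (n = 9). Heart means were 3.68 ± 0.17, 3.97 ± 0.13 and 3.79 ± 0.20, kidney means 4.22 ± 0.09, 4.30 ± 0.10 and 4.16 ± 0.17, and liver means 3.17 ± 0.17, 3.12 ± 0.17 and 3.12 ± 0.14 in the same strain order. The arrays of the 3 strains overlapped in every tissue. These means ranked between the 33.7th and the 51.0th percentile of all probe sets. The lowest adjusted p was that of BPH heart, where the difference from BPN was -0.28 ± 0.10 (adjusted p = 0.113). This value passed without BPH replicate 5 (-0.35, adjusted p = 0.0445) or BPL replicate 1 (-0.28, adjusted p = 0.0435), and array weights gave -0.31 (adjusted p = 0.0394).

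The hypertensive and hypotensive strains were then set against each other. In liver 4 members were higher in BPH (2.68% of all probe sets) and none lower (3.09%): H2-Ea, H2-Eb1 (0.96 ± 0.11), Cd74 (0.75 ± 0.14) and H2-Ab1 (0.66 ± 0.16). In heart 2 were higher in BPH (4.59% of all), H2-Ea and Cd74 (0.72 ± 0.16), and none lower (3.97%). In kidney 1 was higher (3.14% of all), H2-Ea, and 3 were lower (3.19% of all), H2-DMb1, H2-Aa (-0.66 ± 0.12) and H2-Eb1 (-0.61 ± 0.17). In aorta 2 were higher (5.67% of all), H2-Ea and H2-DMa (0.64 ± 0.17), and 1 was lower (5.36% of all), H2-DMb1. The joint fit ended the calls of Cd74 in heart (adjusted p = 0.173) and liver (0.135), H2-Ab1 in liver (0.227), and H2-Aa (0.235) and H2-Eb1 (0.408) in kidney. The H2-Eb1 kidney call (adjusted p = 0.0358) was also lost without any 1 of BPH replicates 2, 4 and 5 or BPL replicates 1, 2 and 5, with adjusted p up to 0.105, and H2-Aa in aorta, at -0.62 ± 0.26 (adjusted p = 0.146), passed without BPH replicate 10 (0.0136) and in the joint fit (0.0131).

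Because class II chains act in pairs, the log2 ratio of each pair was taken within each array, relative to the BPN mean, as a description without a test. For I-E, the ratio of H2-Ea to H2-Eb1 in BPL differed from that in BPN by -3.92 log2 units in aorta, -2.70 in heart, -3.70 in kidney and, least, -1.63 in liver, and the arrays did not overlap in any tissue. In BPH the same ratio differed from BPN by -0.22, -0.16, -0.08 and -0.26, so H2-Ea and H2-Eb1 were lower by nearly the same amount in that strain. The BPH and BPN ratios overlapped in aorta, kidney and liver, and in heart they did not.

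For I-A, the ratio of H2-Aa to H2-Ab1 was higher than in BPN in both strains, by 0.29, 0.34, 0.60 and 0.52 in BPH aorta, heart, kidney and liver. In BPL it was higher by 0.57, 0.84, 0.85 and 1.18, and BPL and BPN arrays did not overlap in any tissue. The BPH and BPN ratios overlapped in aorta, heart and kidney, and in liver they did not. The mean signal of the beta chain was thus lower by more than that of the alpha chain in both strains, with overlapping arrays in most BPH tissues. For H2-DM, the ratio of H2-DMb1 to H2-DMa in aorta differed from BPN by -1.06 in BPH and by 2.14 in BPL. The 3 strains formed separate ranges, the BPN arrays lying within an SD of 0.05 (n = 5). In heart, kidney and liver this ratio was on average higher than in BPN in both strains, by 0.65, 0.49 and 0.70 in BPH and by 1.01, 1.24 and 0.60 in BPL. The BPH and BPN arrays overlapped in heart and kidney. H2-DMb1 was dim and passed in neither strain in heart and liver, so the ratio there mostly restates the lower H2-DMa.

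**Figure D3:**
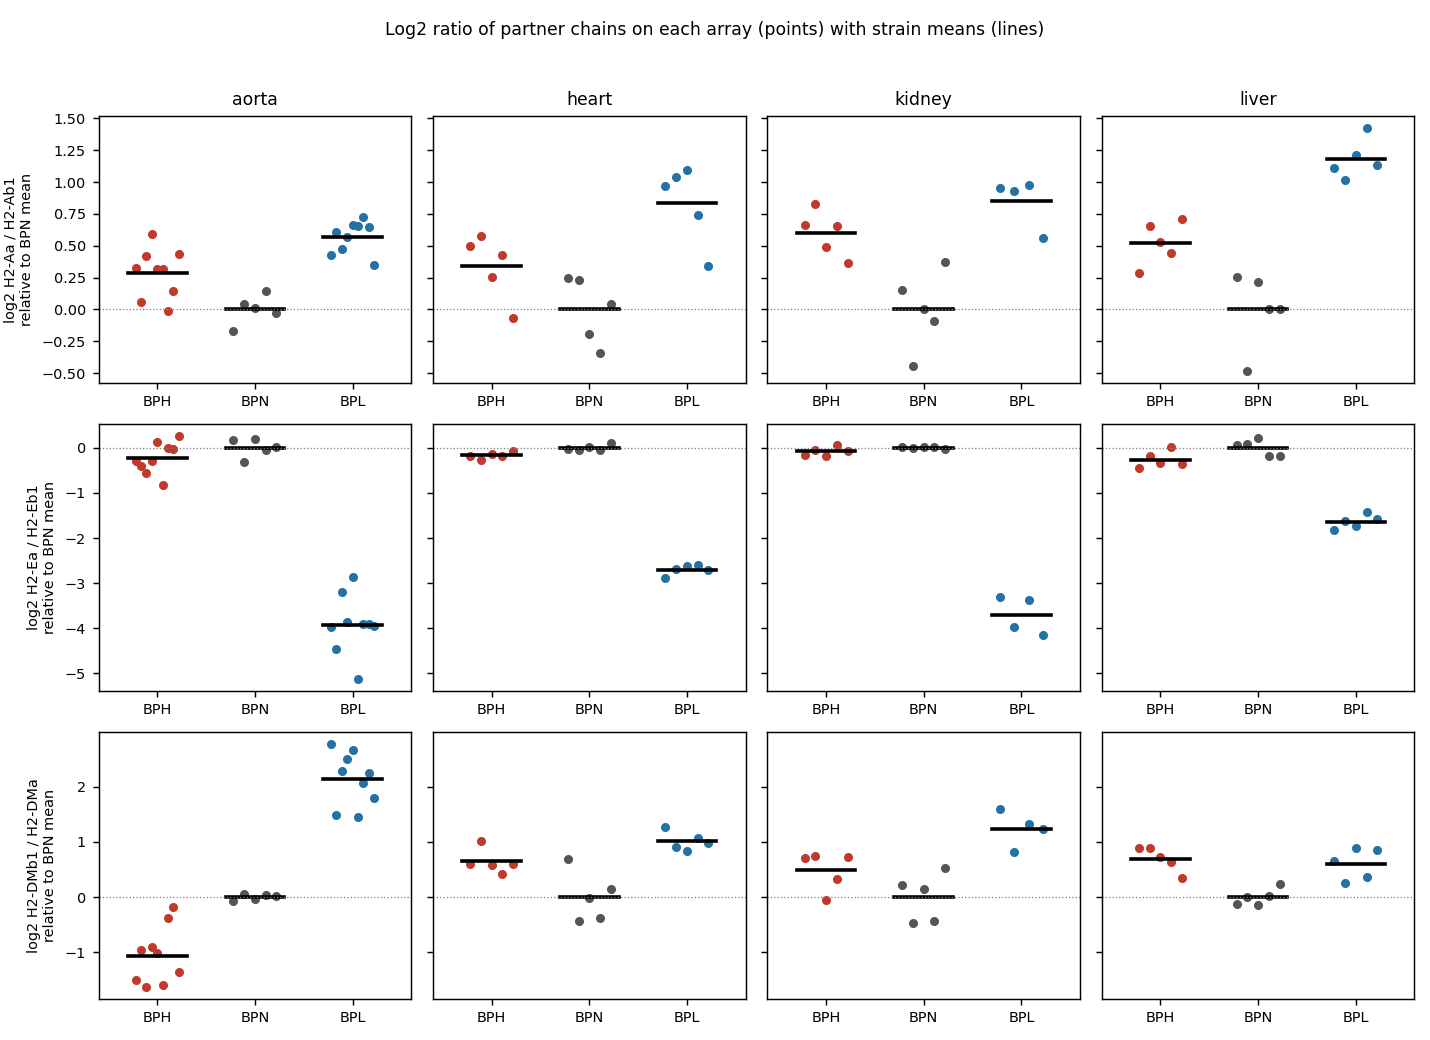
Log2 ratio of partner chains on each array relative to the BPN mean of that tissue (vertical axis), for H2-Aa over H2-Ab1 (top), H2-Ea over H2-Eb1 (middle) and H2-DMb1 over H2-DMa (bottom); points are arrays and lines are strain means. BPL lies apart from BPN in all 12 panels, and BPH lies below BPN in the H2-DM pair of the aorta (-1.06) and above it on average in the other 3 tissues.

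Whether a strain difference itself differed between tissues was tested in the joint fit of all 67 arrays. The BPH difference of H2-DMb1 was larger in aorta than in heart by -1.29 ± 0.28 (adjusted p = 0.000805), and no other member passed in that pair of tissues, where 7.29% of all probe sets did. H2-DMb1 was dim in heart, with strain means of 3.77 to 4.05 against 5.51 to 8.08 in aorta, and aorta had another labelling protocol. Tissue, protocol and signal level cannot be told apart for this gene. The BPL difference of H2-DMb1 also differed between aorta and heart, by 1.26 ± 0.28 (adjusted p = 0.00102), with 8.03% of all probe sets called; without aorta BPH replicate 10, H2-Ea (-0.91, adjusted p = 0.0221) and Cd74 (0.96, adjusted p = 0.0463) passed as well. The BPL difference of H2-Eb1 was -0.40 in kidney and -1.84 in liver, a difference of 1.44 ± 0.42 (adjusted p = 0.0371), with 3.04% of all probe sets called. That call was lost without any 1 of 11 arrays (kidney BPL replicates 1, 2 and 5, kidney BPN replicates 1, 3 and 5, liver BPL replicates 2, 4 and 5, and liver BPN replicates 2 and 4), with adjusted p up to 0.0805, and with a pseudocount of 16 (0.0791).

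No member passed by limma between heart and kidney or heart and liver in either strain, or between kidney and liver in BPH. The shares of all probe sets called there were 2.30% (BPH) and 2.65% (BPL) for heart and kidney, 3.11% and 3.92% for heart and liver, and 2.65% for kidney and liver. At an unadjusted p below 0.05 the counts were 0 and 5 of 8 for heart and kidney in BPH and BPL, 1 and 0 for heart and liver, and 0 for kidney and liver in BPH. The share of all probe sets at that unadjusted threshold is not given here, so these counts only describe the members. In the heart and kidney pair, Cd74 in BPL differed by -1.30 ± 0.41 (adjusted p = 0.0727), and it passed without kidney BPN replicate 2 (-1.53, adjusted p = 0.0178). Without that array it also passed between kidney and liver (1.498, adjusted p = 0.0206), where it was otherwise 1.26 ± 0.41 (adjusted p = 0.0821).

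In some groups 1 array held the extreme value of most members. In BPH aorta, replicate 10 had the highest value of all 8 members and replicate 8 the lowest of 7. In kidney and liver, BPN replicate 2 had the highest value of 7 members, and in heart BPH replicate 2 had the lowest of 7. In the other groups the array most often highest was so for 4 to 6 members, and the one most often lowest for 3 to 6. The mean log2 level of H2-Aa, H2-Ab1, H2-Eb1 and Cd74, termed the class II level, ran from 7.29 to 10.02 in BPH aorta, from 7.99 to 9.63 in BPL aorta and from 9.36 to 10.08 in BPN aorta. The BPH aorta array next below replicate 10 was replicate 5, at 9.11.

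The arrays with the highest class II level carried the same replicate number in several tissues. Among BPN arrays it was replicate 2 in heart (10.15), kidney (10.38) and liver (8.65). Among BPH arrays it was replicate 1 in heart (8.52), kidney (8.73) and liver (7.77). Among BPL arrays it was replicate 1 in heart (7.95) and replicate 2 in kidney (9.25) and liver (6.86). The labels do not say that a number marks 1 mouse.

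**Figure D4:**
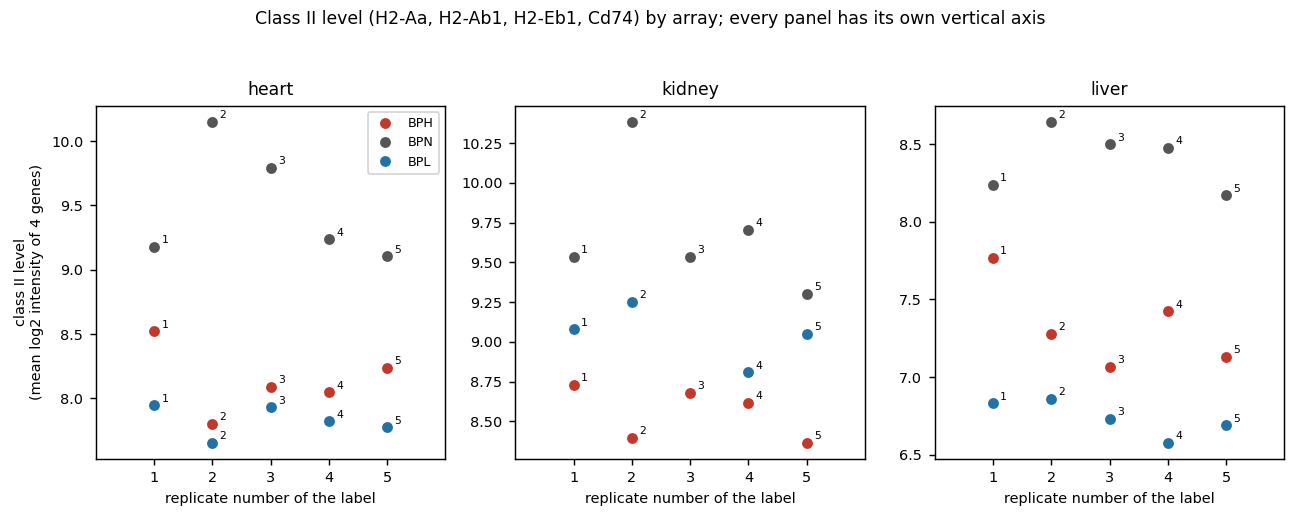
Class II level of each array (vertical axis, the mean log2 intensity of H2-Aa, H2-Ab1, H2-Eb1 and Cd74, separate for each panel) by the replicate number in its label (horizontal axis), in heart, kidney and liver for BPH (red), BPN (grey) and BPL (blue). BPN replicate 2 is highest in all 3 tissues, at 10.15, 10.38 and 8.65, and BPH replicate 1 is the highest BPH array in all 3.

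The named genes whose values followed the class II level most closely within strains differed between tissues. These correlations were taken over arrays after each strain's mean was removed, and genes on the same array share its RNA extract and scaling. The genes named were the highest non-members among 19147 genes in each tissue. How high an r such a choice gives by chance over so few arrays was not tested. The named genes, and their differences between tissues, are therefore a description only. In heart (15 arrays) the closest genes were the class I chain gene H2-D1 (r = 0.92), B2m (0.91), H2-K1 (0.91), the macrophage gene Mpeg1 (0.88) and the chemokine Ccl5 (0.87). In kidney (14 arrays) they were the interferon-induced GTPase Gbp6 (0.95), B2m (0.94), H2-K1 (0.93), Lage3 (0.93) and Snx31 (0.90). Class I genes thus stood near the top in heart and kidney. In aorta (23 arrays) they were the chemokine Ccl8 (0.85), Rnase2a (0.77), Ly86 (0.76), Pdpr (0.75) and Retnla (0.74), and in liver (15 arrays) Gm2093 (0.85), Cts8-ps (0.81), Tmem35a (0.81), Ch25h (0.78) and Pacs1 (0.78). Of the other members, H2-Ea had r = 0.94 in heart, 0.71 in kidney, 0.77 in liver and 0.77 in aorta. H2-DMa had 0.75 in heart, 0.95 in kidney, 0.31 in liver and 0.78 in aorta. H2-DMb1 had 0.69 in aorta and 0.28, 0.31 and 0.43 in heart, kidney and liver, and Ciita had 0.35 in heart, 0.11 in kidney, -0.30 in liver and 0.50 in aorta. The members thus did not all follow the class II level in every tissue. In kidney, the class II level of BPN replicate 2 (10.38, next BPN array 9.70) lay farthest from its strain mean. That array therefore weighs most in the kidney correlations. In aorta this holds for BPH replicate 10 (10.02, next BPH array 9.11) and in heart for BPN replicate 2 (10.15, next 9.79). In liver it holds for BPH replicate 1 (7.77, next 7.42). The correlations were not repeated without these arrays.

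Other genes of the pathway were taken from lists. Of the remaining class II chains, 3 of 4 were measured (H2-Oa and H2-Ob, which form the modulator of H2-DM, and H2-Eb2), and in the comparisons with BPN only H2-Ob in BPL aorta passed, at 0.42 ± 0.14 above BPN (adjusted p = 0.0492). Of genes for class II processing and turnover, 6 of 7 were measured. Ctsl, which encodes the protease cathepsin L that can cut the invariant chain, was lower in BPH in all 4 tissues, by -0.24 ± 0.07 in heart, -0.64 ± 0.06 in kidney, -0.81 ± 0.07 in liver and -0.55 ± 0.11 in aorta (adjusted p at most 0.043). In BPL it was higher than in BPN in kidney (1.28 ± 0.07, adjusted p = 1.1e-09) and liver (0.51 ± 0.07, adjusted p = 7.7e-05) and lower in heart (-0.31 ± 0.07, adjusted p = 0.00641). The protease gene Lgmn was lower in BPH aorta (-0.60 ± 0.11) and heart (-0.28 ± 0.06) and higher in BPL kidney (0.25 ± 0.06) and liver (0.39 ± 0.08). Ifi30, which reduces disulfide bonds of antigens, was higher in BPL kidney (0.32 ± 0.06). Marchf1, a ubiquitin ligase that removes class II from the surface, was lower in BPH aorta (-0.74 ± 0.23) and BPL heart (-0.51 ± 0.10). Its values in the 2 tissues come from different probe sets. In BPL heart it was dim, with a mean of 3.37 beside array lower quartiles of 3.20 to 3.32. Marchf8, a related ubiquitin ligase, was lower in BPL aorta (-0.27 ± 0.08, adjusted p = 0.0317), heart (-0.45 ± 0.07, adjusted p = 0.000539) and kidney (-0.38 ± 0.10, adjusted p = 0.0298). In BPL kidney the list thus had 3 genes higher and 1 lower.

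Of genes that control class II transcription, 10 of 13 were measured, and 1 was called lower in each tissue in BPH. These were Ifngr2, a chain of the interferon gamma receptor, in aorta (-0.57 ± 0.10) and heart (-0.20 ± 0.05), the interferon-responsive factor Irf1 in kidney (-0.28 ± 0.07), and Creb1 in liver (-0.24 ± 0.07). In BPL 1 was lower in heart, Irf1 (-0.25 ± 0.06), 1 in kidney, Irf1 (-0.27 ± 0.07), and 1 in liver, the Y box subunit gene Nfyb (-0.54 ± 0.11), and none passed in aorta, where 3 had an unadjusted p below 0.05 in limma. The list medians lay between -0.18 and -0.01. Of all probe sets, 4.70%, 3.51%, 3.39% and 3.85% were lower in BPH aorta, heart, kidney and liver. In BPL the shares were 5.20%, 5.20%, 3.02% and 3.70% in that order. A single call among 10 genes is too few to be set apart from these shares.

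Of 13 genes that neighbour the class II genes in the MHC region, 0 passed by limma in BPH aorta (3 at an unadjusted p below 0.05), 3 were lower in heart, 4 in kidney and 5 in liver, and none was higher. The immunoproteasome genes Psmb8 and Psmb9 and the peptide transporter gene Tap1 were lower in these 3 tissues, Psmb8 by -0.66 ± 0.15 in heart, -0.70 ± 0.15 in kidney and -0.47 ± 0.09 in liver. In BPL 1 neighbour was higher and 1 lower in aorta, and 6, 2 and 3 were lower in heart, kidney and liver. The higher one was Btnl2, at 0.65 ± 0.12 (adjusted p = 0.000554). Notch4 had the largest difference in BPL heart, -0.91 ± 0.11 (adjusted p = 2.5e-05). Both lie beside the class II chains.

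Markers of the cells that carry class II were set beside the members. Of 11 measured macrophage markers, 6 were lower in BPH heart, 4 in kidney and 6 in liver, with list medians of -0.33, -0.41 and -0.29, against member medians of -1.25, -1.02 and -0.91. C1qb, a complement gene of tissue macrophages, was lower by -0.74 ± 0.12, -0.99 ± 0.14 and -0.84 ± 0.08. In BPH aorta 1 was higher, Mertk (0.54 ± 0.13), none was lower, and the list median was -0.21. At an unadjusted p below 0.05 there were 6 of 11, of which Adgre1, C1qb, C1qc, Mrc1 and Cd163 had differences between -0.48 and -0.35. In BPL, 7 macrophage markers were lower in heart, 0 in kidney by limma (2 at an unadjusted p below 0.05), 6 in liver and 0 in aorta (again 2), with medians of -0.47, -0.03, -0.29 and -0.07. The summed macrophage intensity ran from 2242 to 2531 in BPH, 2801 to 4126 in BPN and 2238 to 2357 in BPL heart, from 799 to 899, 962 to 1161 and 989.9 to 1287 in kidney, from 1142 to 1474, 1666 to 1892 and 1418 to 1465 in liver, and from 2786 to 4860.5, 2740 to 5723 and 3270 to 4855 in aorta. The macrophage sum was thus lower in BPH than in BPN without overlap in heart, kidney and liver, and its part in the class II differences was not tested.

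Of 6 pan leukocyte markers, 1 was lower in BPH heart, 4 in kidney and 4 in liver, and 0 passed by limma in aorta, where 4 had an unadjusted p below 0.05. Ptprc (CD45) was lower in BPH kidney by -0.79 ± 0.12 and liver by -0.59 ± 0.10. In BPL, 3 were lower in heart, 1 in kidney and 3 in liver, and none passed in aorta (3 at an unadjusted p below 0.05). The summed level ran from 425 to 497 in BPH, 552 to 719 in BPN and 511 to 623 in BPL kidney, and from 282 to 366, 423 to 502 and 326 to 384 in liver. In heart it ran from 746 to 1790, 910.1 to 1435 and 666 to 804, and in aorta from 733 to 2036, 1270.4 to 2199 and 1216 to 1833.

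Of 9 dendritic cell markers, 1 was higher in BPH aorta, the cross-presenting cell receptor Xcr1 (1.16 ± 0.15). Xcr1 was dim in BPN aorta, with a mean log2 of 2.96 beside array lower quartiles of 2.90 to 3.03. The list median in BPH aorta was -0.22. In BPH kidney 1 marker was higher and 1 lower, and none passed in BPH heart or liver. The kidney genes were Cd83, a surface protein of activated dendritic cells, which was higher (0.38 ± 0.09), and the lectin gene Cd209a, which was lower (-0.60 ± 0.14). In BPL 2 were lower in aorta, Cd83 (-1.23 ± 0.18) and the integrin gene Itgax (-0.66 ± 0.21), 2 in heart, Cd83 (-0.65 ± 0.09) and Cd209a (-0.46 ± 0.10), and 2 in kidney, the transcription factor genes Zbtb46 (-0.34 ± 0.08) and Batf3 (-0.35 ± 0.08). None passed in BPL liver by limma, where 2 had an unadjusted p below 0.05, and none was higher in BPL. The dendritic cell sum ran from 353 to 588 in BPH, 449 to 600.1 in BPN and 311 to 400.4 in BPL aorta. It ran from 369 to 445, 412 to 491 and 352 to 382 in heart, from 396 to 434, 430 to 469 and 372 to 390 in kidney, and from 185 to 210 in BPH, 185 to 207 in BPN and 159 to 209 in BPL liver. The BPL sums lay below the BPN sums without overlap in aorta, heart and kidney, and the part of these markers in the class II differences was not tested. A sum of intensities weighs the brightest gene most, which in BPN aorta was Cd83 (mean log2 7.90, against 6.67 in BPL). Flt3 (0.10) and Zbtb46 (0.07) lay slightly above BPN in BPL aorta without passing.

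Lymphocyte markers were called lower in several comparisons. In BPH aorta 4 of 7 B cell markers were lower, with a list median of -1.03, among them Ms4a1 (-1.40 ± 0.44) and Cd79b (-1.11 ± 0.35), and 3 of 5 T cell markers were lower, with a median of -0.70. The T cell receptor complex genes Cd3d (-0.43 ± 0.12) and Cd3g (-0.45 ± 0.12) were also lower in BPH kidney, Cd3g (-0.38 ± 0.11) in BPH liver, and the B cell marker Fcer2a in BPL aorta (-0.87 ± 0.22, adjusted p = 0.00999). The other T cell markers did not pass in BPH kidney or liver, where the list medians were -0.10 and 0.02. Cd3g was dim, with means of 2.84 (BPH) and 3.28 (BPN) in kidney, where array lower quartiles ran from 3.49 to 3.64. The Cd3d mean in BPH kidney, 3.58, also lay within these quartiles, and its BPN mean was 4.01. In liver the Cd3g means were 2.65 and 3.03, beside lower quartiles of 2.67 to 2.76. The B cell sum ran from 96.9 to 376 in BPH, 205 to 523 in BPN and 169 to 279 in BPL aorta, and the T cell sum from 155 to 296, 232 to 582 and 245 to 398. These ranges overlapped. No B cell marker passed in heart, kidney or liver in either strain. B cells express class II, and the part of these markers in the aorta result was not tested. The class I chains, H2-K1, H2-D1 and B2m, were all lower in heart in both strains and in BPH kidney, with list medians of -0.96, -0.95 and -0.57. In BPL liver, where 6 class II members were lower, H2-K1 was higher by 1.17 ± 0.08 (adjusted p = 1.1e-08).

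**Figure D5:**
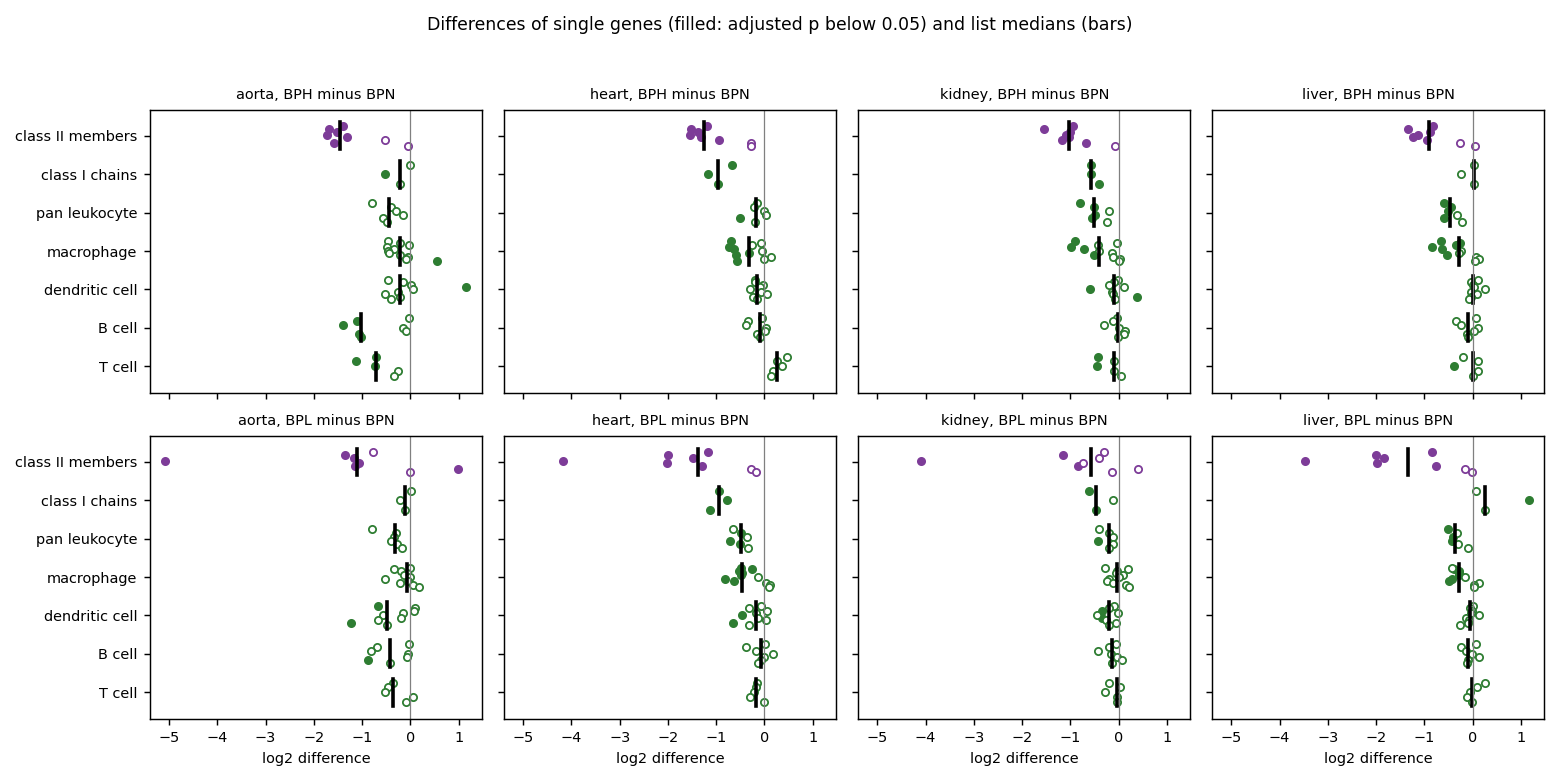
Log2 difference from BPN (horizontal axis) of each class II member (purple) and each gene of the marker lists (green), for BPH (top) and BPL (bottom) in each tissue; filled points have an adjusted p below 0.05 and bars are list medians. The class II median lies lower than the macrophage median in each of the 8 panels, as in BPH heart at -1.25 against -0.33.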

How the data were processed

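Per the labels, RNA of each tissue was hybridised to a Merck/Affymetrix mouse custom array. Intensity values were normalised by the authors using the RMA algorithm, as the submitters' processing notes and the design text state, and deposited as linear intensity for 38385 probe sets on 67 arrays. Values were taken as log2 with no pseudocount. Probe sets were named from the platform's gene table: 24478 had 1 symbol, 65 had several and were not named, and 13842 were not listed. Each tissue was fitted with limma 3.58.1 (R 4.3.3), with lmFit and eBayes on its 3 strains, and Benjamini-Hochberg adjustment ran over all probe sets of a comparison, with 0.05 as the threshold. Differences between tissues came from a joint fit of the 12 groups of tissue and strain. The procedure was tested on simulated data, where it recovered 93.5% of 200 changed probe sets of 38385 for BPH against BPN in aorta and 99.5% in heart.

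All 8 members are named with their values. Genes of the pathway lists could be named where they passed the test, up to 4 per list and comparison with the largest difference first, and the 5 genes of highest correlation with the class II level are named per tissue. Cell type markers were picked for naming after their values were seen. No share of all probe sets is given for counts at an unadjusted p below 0.05, which only describe the genes counted. The members and the lists were chosen with earlier results of these data known. Alternatives were the joint fit, a fit of the 2 strains or tissues alone, an intensity trend, array weights, a pseudocount of 16, leaving out dim probe sets, 1 probe set per gene, quantile normalisation, the replicate number as a block, and leaving out each array. The pseudocount and left-out arrays for the chain ratios were added after seeing the data. Array scans and dates were not used, and the number of arrays limits the precision. Correlations between arrays of a group lay between 0.986 and 0.997, and no arrays were identical. Promoter letters were taken from RefSeq (GRCm38.p6).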

Additional observations from a re-analysis of the deposited data

Results flagged for a closer look

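An array far from the rest of its group was found in 5 of 96 groups of a member, tissue and strain, and chance alone marks about 1 in 20. H2-Aa in kidney BPN replicate 2 had a log2 level of 8.49, against 8.10 for the next array. H2-Eb1 in heart BPL replicate 1 stood at 8.07, against 7.93. H2-DMa in liver BPH replicate 4 stood at 4.88, against 4.72. H2-DMb1 in liver BPN replicate 2 stood at 3.90, against 3.66. Ciita in heart BPL replicate 1 stood at 4.14, against 3.75.

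A strain difference that differed between tissues by the test of the difference itself was found for 2 members. For H2-DMb1 the BPH difference from BPN was more negative in aorta than in heart by -1.29, and the BPL difference was more positive in aorta by 1.26. H2-DMb1 was dim in heart, and aorta RNA was labelled by another protocol. For H2-Eb1 the BPL difference was less negative in kidney than in liver by 1.44.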

How the results depend on the processing

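No difference of a member, between strains or between tissues, changed direction among those called, over the refits of single members: 4658 values kept their side of the threshold, 50 lost a call and 42 gained one. The count of members called against BPN stayed within 1.5 times under every alternative. For BPH against BPL, the heart count of 2 became 1 in the joint fit and 4 in the fit of 2 strains, and the kidney and liver counts of 4 each became 2 in the joint fit; the cause was not tested. For differences between tissues in BPL, the heart and kidney count of 0 became 3 with array weights, 3 in the fit of 2 tissues and 4 with the replicate block; the kidney and liver count of 1 became 2, 2 and 5 in the same order and 0 with a pseudocount of 16; the heart and liver count of 0 became 1 in the fit of 2 tissues and 2 with the block. In BPH the heart and liver count of 0 became 1 with the block.

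Leaving out each array in turn gave, for aorta, 6 to 6, 4 to 7 and 3 to 4 members for BPH against BPN, BPL against BPN and BPH against BPL; for heart 6 to 7, 6 to 6 and 2 to 2; for kidney 6 to 7, 2 to 4 and 3 to 4; for liver 6 to 6, 6 to 6 and 4 to 4. Between tissues in BPL it gave 1 to 3 for aorta and heart, 0 to 1 for heart and kidney, and 0 to 2 for kidney and liver.

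The labels do not say that replicate numbers pair the arrays, and in no comparison did every same-numbered pair of deviations correlate above 0.1: correlations ran from -0.29 to 0.28 between strains and from -0.22 to 0.21 between tissues. Between kidney and liver all were positive in BPH (0.02 to 0.19, 3 of 5 arrays best with their own number) and BPL (0.02 to 0.21, 3 of 4), as between BPL and BPN in liver (0.04 to 0.27, 3 of 5), a hint from the data and not from the design. With the replicate block within a tissue, H2-DMa in kidney BPL against BPN (adjusted p = 0.0529) and H2-Eb1 in kidney BPH against BPL (0.0715) lost their calls, and no other strain call of a member changed. Aorta strains shared fewer than 2 numbers, so no block was fitted there.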

Other observations

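Heart BPH replicate 5 stood apart in T cell genes. Its T cell list had a mean log2 level of 7.06, and the heart BPH median was 4.87. Its pan leukocyte level was 8.02, with a median of 7.03 over the strain's 5 arrays. Its class II level was 8.24, the second highest of BPH heart and below every BPN heart array, the lowest of which was 9.10. Aorta BPL replicate 26, which had the highest class II level of that group (9.63), also had the highest level of hepatocyte identity genes among the BPL aorta arrays (7.50, with a group median of 2.84). Aorta BPH replicate 5, next to highest in class II level (9.11), had the highest heart identity level of its group (9.07, median 6.14).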
